A study of Mus musculus with 7 samples.

Results

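The mRNAs of 7 genes of the DNA methylation machinery, Uhrf1, Dnmt1, Dnmt3a, Dnmt3b, Dnmt3l, Tet1 and Tet2, were followed in CIRS-seq of E14 cells, an established mouse embryonic stem cell (ESC) line. They were chosen by gene symbol alone, as every transcript listed under 1 of these symbols in the deposited counts. This gave 38 transcripts of 7 genes, of 26792 transcripts of 13218 genes in all, and 0 of the 7 symbols were absent. Uhrf1 had 6 listed transcripts, Dnmt1 had 1, Dnmt3a had 6, Dnmt3b had 11, Dnmt3l had 7, Tet1 had 5 and Tet2 had 2.

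In CIRS-seq, reverse transcription (RT) stops at a base that a reagent has modified, and the stops are counted at each base of each transcript. Dimethyl sulfate (DMS) modifies unpaired A and C. CMCT, a carbodiimide, modifies unpaired U and, less readily, G. All 6 CIRS-seq libraries came from the lysate of these cells after 15 min with 100 µg/ml of Proteinase K, so the RNAs were probed without their proteins. DMS libraries pooled 50, 100, 150 and 200 mM treatments of 2 min at 30 °C, CMCT libraries pooled 10, 20, 25 and 50 mM treatments of 20 min at 30 °C, and the not-treated (NT) libraries received neither reagent. Each of the 3 treatments had 2 biological replicates, and 1 RNA-seq library of ribosomal RNA-depleted RNA from the untreated line gave abundance. A single line, with no genetic or pharmacological change of DNA methylation, was measured, and in bulk samples such as these fewer cells expressing a gene and less RNA per cell cannot be told apart.

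DNA methylation at CpG sites is copied at replication by Dnmt1, the maintenance methyltransferase, which the hemimethylated-DNA reader Uhrf1 recruits to newly made DNA. Dnmt3a and Dnmt3b lay down methylation de novo, and Dnmt3l, which has no catalytic activity of its own, stimulates both of them in ESCs and germ cells. Tet1 and Tet2 work in the other direction, oxidising 5-methylcytosine to 5-hydroxymethylcytosine and beyond. Tet3, the remaining Tet enzyme, is not listed in the CIRS-seq counts and had an RNA-seq level of 0.328 RPKM (reads per kilobase of exon, scaled to library size).

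The 6 CIRS-seq libraries held 181944556 to 338201940 RT stops. Only 6.85% to 11.2% of these stood at positions found once in the mouse genome, meaning that the 25 bases that follow the position, where the sequenced read starts, occur at 1 place in mm9 only; 79.7% of all listed positions are of this kind. Values are therefore given both for all positions and for positions found once. The RNA-seq library held 31857551 alignments, of which 22286799 lay in exactly 1 gene. All 9 ESC marker genes found in the annotation had 5.34 to 316 RPKM, whereas the highest level among markers of endoderm, mesoderm, neuroectoderm, trophoblast and fibroblasts was 4.44 RPKM, for Gata6.

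The maintenance pair was the most abundant. In RNA-seq, Uhrf1 (mm9 chr17:56442744-56462909, plus strand) had 41.6 RPKM, with a 95% Poisson interval of 40.3 to 42.9, and Dnmt1 (chr9:20711650-20757317, minus strand) had 37.4, from 36.3 to 38.5. Tet2 (chr3:133126643-133207354, minus strand) followed with 22.7, from 22.0 to 23.4, and Tet1 (chr10:62267318-62361866, minus strand) with 21.2, from 20.7 to 21.7. These intervals cover counting error of 1 library only and do not overlap between the neighbours Uhrf1 and Dnmt1, or between Tet2 and Tet1.

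The genes of de novo methylation stood below these. Dnmt3l (chr10:77504692-77526367, plus strand) had 10.1 RPKM (95% interval 9.38 to 10.9), Dnmt3b (chr2:153475186-153513466, plus strand) had 8.43 (7.90 to 8.98) and Dnmt3a (chr12:3806007-3914443, plus strand) had 2.63 (2.47 to 2.81). Among 19241 coding genes with an alignment, the 7 genes lay at the 96.6th percentile for Uhrf1, 96.2 for Dnmt1, 93.5 for Tet2, 93.0 for Tet1, 84.6 for Dnmt3l, 81.7 for Dnmt3b and 62.2 for Dnmt3a. The place of Dnmt3a depends on the length it is divided by. When only the places where an unspliced 50-base read can lie on the listed isoform with the longest coding region were counted as length, Dnmt3a had 10.4 RPKM (9.35 to 11.6) and Dnmt3b had 10.8 (10.1 to 11.6), so that their intervals overlapped, while Uhrf1 had 58.8, Dnmt1 44.6, Tet2 26.3, Tet1 22.1 and Dnmt3l 19.2. With that length Dnmt3a and Dnmt3b cannot be ordered, and the order of the other 5 is unchanged.

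**Figure D1:**
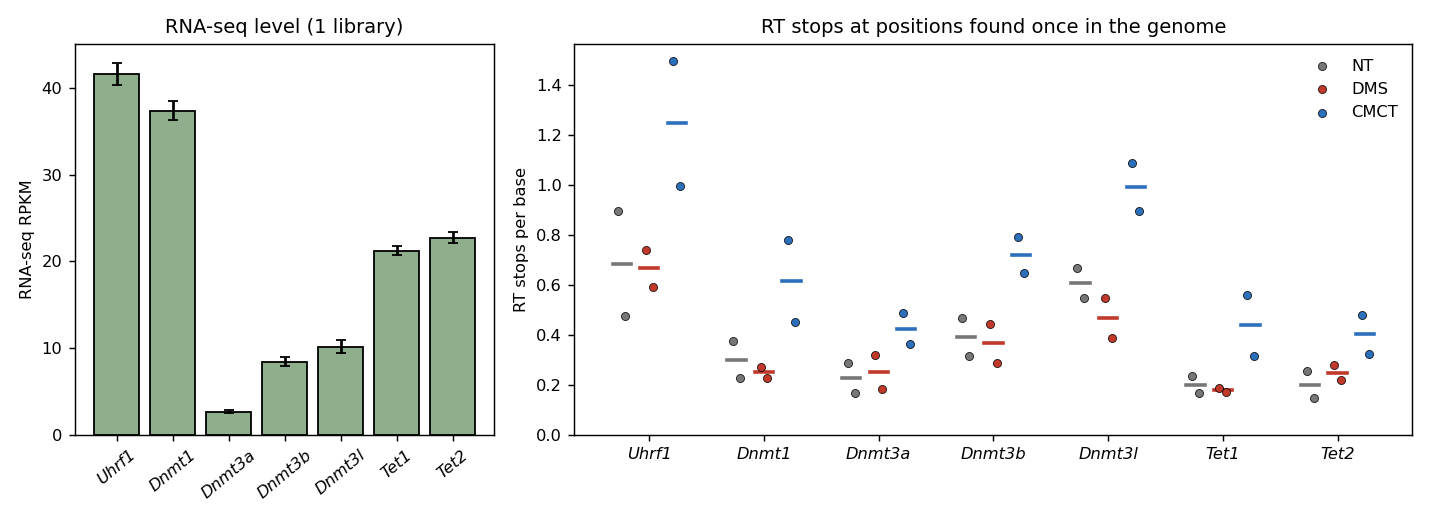
Left, RNA-seq level (RPKM, bars, 1 library, error bars are 95% Poisson intervals) of the 7 genes; right, RT stops per base at positions found once on the listed isoform with the longest coding region, 1 point per replicate and a line at the mean of the 2 replicates for NT, DMS and CMCT. Uhrf1 is highest in RNA-seq and in the mean of each treatment, whereas Dnmt1 has 37.4 RPKM but no more than 0.781 RT stops per base and Dnmt3l has 10.1 RPKM and up to 1.09.

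RT stops per base did not follow the order of the RNA-seq levels. For each gene the listed isoform with the longest coding region was read, which for Tet2 is Tet2-201, without UTRs. On Uhrf1-001 (3586 nt), stops per base at positions found once were 0.894 and 0.476 in NT, 0.740 and 0.592 in DMS and 1.50 and 0.995 in CMCT. On Dnmt3l-001 (1822 nt) they were 0.667 and 0.547 in NT, 0.546 and 0.389 in DMS and 1.09 and 0.894 in CMCT. On Dnmt1-201 (5264 nt) they were 0.374 and 0.228, 0.273 and 0.228, and 0.781 and 0.449, below Dnmt3l in every library although Dnmt1 was the more abundant in RNA-seq. Values were low on Tet1-001 (14369 nt), with 0.165 to 0.560 over the 6 libraries, on Tet2-201 (5760 nt), with 0.147 to 0.479, and on Dnmt3a-005 (2328 nt), with 0.165 to 0.486, and the ranges of these 3 mRNAs overlap. Dnmt3b-201 (4318 nt) lay between, from 0.289 to 0.793. Summed over the 4 treated libraries, Uhrf1 stood at the 84.0th percentile of coding transcripts at positions found once, Dnmt3l at 77.8, Dnmt3b at 69.2, Dnmt1 at 59.7, Dnmt3a at 47.5, Tet2 at 45.4 and Tet1 at 42.3. All 7 had at least 1 treated stop per base.

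The strongest stops of each mRNA show on which bases RT stopped. For each gene, the position found once with the most CMCT stops on the isoform named above is given below, together with the highest one on the longer Tet2-202, which adds the 3′ UTR of Tet2, as 25 bases of the spliced transcript, 5′ to 3′, with the base at which stops were placed in capitals; these 8 windows are printed because they carry the highest CMCT signals, and in 5 of them the capital is a U or C followed by A.

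Uhrf1 position 499, codon 82: acugccucucagUacaaaagaacgg

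Dnmt1 position 1723, codon 546: cuccuucuaccaUuaaugugaaccg

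Dnmt3a position 2131, codon 656: agacgucuccaaCaugagccgcuug

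Dnmt3b position 172, 5′ UTR: uaagcggcccaaGuaaacguagcgc

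Dnmt3l position 644, codon 121: ucccucuuccugUaugaugaugaug

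Tet1 position 2584, codon 764: aacaaauugaauCaugaggaauuua

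Tet2-201 position 434, codon 145: ccggacuaagugAuaauggagagcc

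Tet2-202 position 8454, 3′ UTR: acuaaaaacuuuCagaaugucugcc

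The U of Uhrf1 (chr17:56448852) had 12 and 6 stops in NT, 9 and 4 in DMS and 47 and 49 in CMCT. The U of Dnmt3l (chr10:77514764) had 21 and 21 in NT, 16 and 14 in DMS and 48 and 49 in CMCT. Both were highest in CMCT in both replicates but also had stops with no reagent at all. The C of Tet1 (chr10:62302754) had 25 and 3, 7 and 6, and 105 and 19, and the G of Dnmt3b (chr2:153475361) had 20 and 0, 15 and 3, and 54 and 37, so that the CMCT replicates of Tet1 lay far apart and the NT replicates of Dnmt3b even more so. The U of Dnmt1 (chr9:20726903) had 9 and 1, 5 and 0, and 45 and 17. The C of Dnmt3a (chr12:3907645) had 12 and 0, 14 and 3, and 26 and 21, and the A of Tet2 (chr3:133151202) had 6 and 0, 3 and 0, and 17 and 14. The C of Tet2-202 (chr3:133127368) had 85 and 93, 40 and 54, and 99 and 24. Both CMCT counts are above both NT counts in each window but those of Tet1 and Tet2-202, where the lower CMCT count is below an NT count. The windows were picked by their CMCT stops, so this order is partly built in. These counts, and those of the windows below, are not scaled to library size.

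Some positions had stops mainly with DMS. The next windows hold the position found once with the most DMS stops, or 1 of a tied pair, on the isoforms read for 5 of the genes. They are printed because in Dnmt1-201, Dnmt3b-201 and Tet2-201 they are A bases with few or no stops in the other treatments, whereas in Dnmt3a and Tet1 they are not. The A of Dnmt1 tied with a U followed by A at position 1844, which had more stops in CMCT, and the U of Dnmt3a tied with the C at position 2131 shown above. In Uhrf1 and Dnmt3l the position with the most DMS stops is a U followed by A with more stops in CMCT. On Tet2-202 the highest is again the C at position 8454, which has fewer stops in DMS than in NT.

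Tet2-201 position 278, codon 93: auggagggauaaAacgcacagucag

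Dnmt1 position 2991, codon 969: aaggauccugugAacgagacccugu

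Dnmt3b position 1200, codon 264: ggccaugcccggAaugcgcugggua

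Dnmt3a position 1076, codon 305: ugugcuuaccagUaugacgacgaug

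Tet1 position 12581, 3′ UTR: gcaucaaagcuuAgguuuaugguuu

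The A of Tet2 (chr3:133151358) had 8 and 7 stops in DMS and 0 and 0 in both NT and CMCT. The A of Dnmt3b (chr2:153493356) had 14 and 12 in DMS, 3 and 4 in NT and 1 and 2 in CMCT. The A of Dnmt1 (chr9:20720338) had 8 and 9 in DMS, 2 and 3 in NT and 0 and 1 in CMCT, while the U it tied with had 9 and 8, 8 and 8, and 19 and 14. These adenines are each followed by another A. Over all found-once positions such pairs held 0.733% (Dnmt3a) to 5.05% (Tet1) of the NT stops and 11.5% (Dnmt3l) to 25.4% (Tet2) of the DMS stops, against 4.10% and 17.9% over all coding genes. The U of Dnmt3a (chr12:3899614) had 14 and 3 stops in DMS against 15 and 1 in NT and 11 and 9 in CMCT, and the A of Tet1 (chr10:62269113) had 49 and 44 in DMS against 80 and 111 in NT and 36 and 8 in CMCT. DMS was below NT in both replicates of Tet1, and the DMS and NT counts of Dnmt3a overlap.

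The feature that many of the strong stops share is a pyrimidine followed by A. Of the 33 different positions that are among the 2 highest found-once positions of the isoform read for each gene (Tet2-201 for Tet2) in NT, DMS or CMCT (of 2 tied for second place in Dnmt3a with CMCT, the one nearer the 5′ end is counted), 15 are a U followed by A and 8 a C followed by A. These pairs were searched as UA and CA on the transcript strand after the windows had been read, so the share is a description. Over all positions found once, UA and CA together make up 8.62% of the positions in Dnmt3l, the lowest of the 7, and 14.4% in Tet2, the highest, against 11.6% over 7034 coding genes. Their share of the stops was larger by several fold. In NT it was 49.7% and 41.5% in the 2 replicates of Uhrf1, 50.0% and 44.1% in Dnmt1, and over both replicates together 39.8% in Dnmt3l to 52.7% in Tet2, against 37.6% for all coding genes. In CMCT it was 42.8% in Dnmt3l to 53.3% in Tet2, against 44.1%, and in DMS 33.3% in Dnmt1 to 43.6% in Dnmt3a, against 32.9%. The share is present in the untreated libraries, is no lower in any of the 7 genes than in coding genes as a whole in NT, and was lower in DMS than in NT in each of the 7, although single replicates of the 2 treatments overlap in Dnmt3a, Dnmt3b and Dnmt3l.

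**Figure D2:**
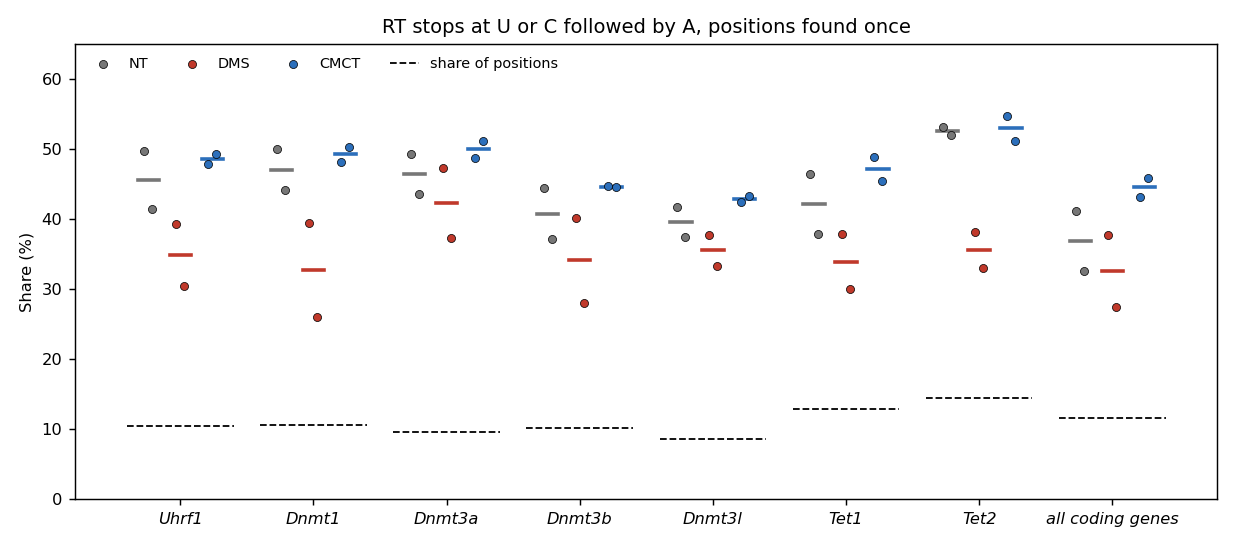
Share of RT stops (%) that stand at a U or C followed by A, at positions found once, for the 7 genes and all coding genes, with 1 point per replicate of NT, DMS and CMCT, a line at their mean and a dashed line at the share of positions. All points of the 7 genes lie above the dashed line, which is at 8.62% for Dnmt3l to 14.4% for Tet2.

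With DMS the summed share of stops at A and C was higher in all 7 mRNAs, through stops at A. In Dnmt1, stops at A or C were 54.0% and 49.5% of those at positions found once in NT, 71.1% and 71.2% in DMS and 48.1% and 46.3% in CMCT. In Dnmt3l, whose NT share was the lowest, they were 41.4% and 39.0% in NT, 61.8% and 59.1% in DMS and 38.1% and 35.3% in CMCT. In Tet2 they were 56.9% and 52.7% in NT, 70.4% and 72.6% in DMS and 49.6% and 47.7% in CMCT. In these 3 mRNAs and in Uhrf1, Dnmt3a, Dnmt3b and Tet1 the lower DMS replicate was above the higher NT replicate.

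The odds of a stop at A or C were compared by limma on the log2 scale with Benjamini-Hochberg adjustment over 10020 genes. The odds were higher in DMS than in NT by a log2 value of 1.20 ± 0.12 (SE, n = 2 against 2, adjusted p = 0.0024) in Dnmt1, 1.19 ± 0.12 (adjusted p = 0.0024) in Dnmt3l, 1.05 ± 0.13 (0.0039) in Tet2, 0.97 ± 0.13 (0.0045) in Dnmt3b, 0.95 ± 0.13 (0.0047) in Tet1, 1.07 ± 0.23 (0.0154) in Dnmt3a and 0.81 ± 0.16 (0.0115) in Uhrf1. All 7 genes were therefore called higher, which 69.2% of all genes tested were, and the median of the 7, 1.05, was close to that of all genes, 1.03. Without the second DMS replicate, limma gave an adjusted p of 0.0569 for Uhrf1 and 0.0523 for Dnmt3a, and without the second NT replicate 0.0742 for Dnmt3a, so these 2 calls rest on those libraries. Stops at A were 8.9% to 19.2% of stops in NT and 27.4% to 41.5% in DMS, as means of the 2 replicates across the 7 genes. The share at C was not higher in DMS in 6 of the 7. Its means in NT and DMS were 43.6% and 32.7% in Uhrf1, 39.1% and 29.7% in Dnmt1, 40.3% and 30.3% in Tet2 and 33.8% and 28.1% in Tet1, where both DMS replicates were below both NT replicates. In Dnmt3a (39.8% and 35.3%), Dnmt3b (35.5% and 30.8%) and Dnmt3l, the one gene with the higher mean in DMS (31.3% and 33.1%), the replicates overlap. The shares of the 4 bases are parts of 1 total, and the share at C was not tested on its own.

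**Figure D3:**
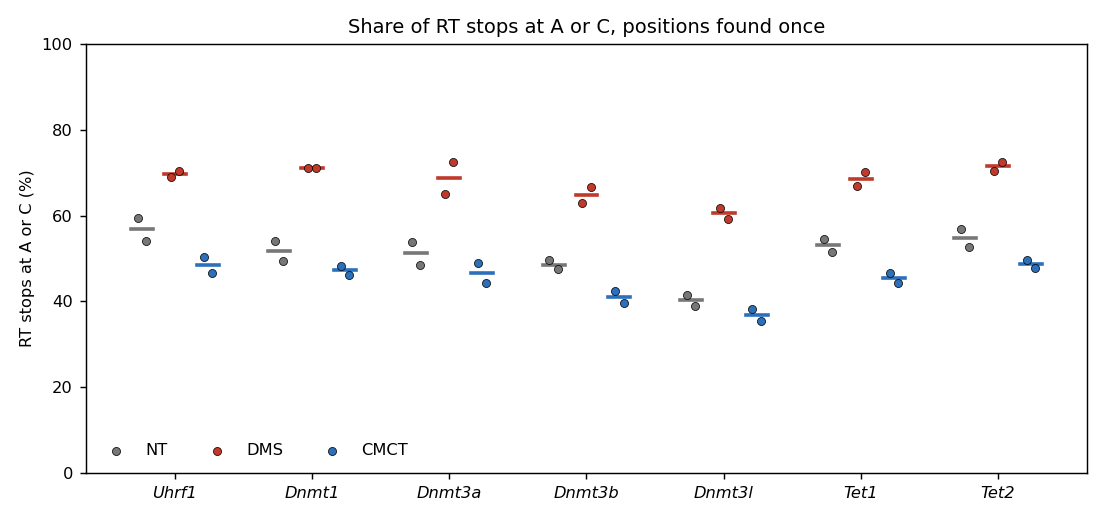
Share of RT stops (%) at A or C in the 7 mRNAs, at positions found once, 1 point per replicate and a line at the mean of the 2 replicates of NT, DMS and CMCT. In every gene both DMS points lie above both NT points, and the 2 CMCT points lie below the 2 NT points in all genes but Dnmt3a, where CMCT replicate 1 (49.0%) lies just above NT replicate 2 (48.6%).

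With CMCT the summed share at G and U was higher than in NT by less, with the higher share at U. Stops at U were 27.6% of all found-once stops in NT in Uhrf1 and 36.7% in CMCT, and 38.0% and 45.6% in Dnmt3l, these being the lowest and the highest of the 7. Both CMCT replicates were above both NT replicates in each of the 7. The mean share at G was lower in CMCT than in NT in 5 of the 7, most in Dnmt3l (21.8% in NT and 17.7% in CMCT), and slightly higher in Dnmt3a (15.6% and 16.4%) and Tet2 (11.3% and 11.4%), with replicates that overlap in all but Dnmt1 and Dnmt3l. The log2 odds of a stop at G or U differed between CMCT and NT by 0.21 to 0.48. limma called 0 of the 7 genes, 4 had an unadjusted p under 0.05, and 11.8% of all genes tested were called higher. For U alone, 3 of the 7 were called higher, against 21.2% of all genes: Uhrf1 (adjusted p = 0.0403), Dnmt3l (0.0359) and Tet1 (0.0405). At all positions Tet2 was called the other way, by -0.98 (limma adjusted p = 0.0047), as were 4.26% of all genes.

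Repeated sequence weighed heavily on Uhrf1 and Tet2 and, in the gene counts given further below, on Dnmt3a. The following windows hold the positions with the most stops in the 3′ UTR of Uhrf1 and Tet2. They are printed because the 25 bases after each capital occur many times in the genome. Reads from other RNAs can thus be placed there.

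Uhrf1-001 position 2829, chr17:56462152: agaaggaaaaaaAuguuuuuguuuu

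Tet2-202 position 8911, chr3:133126911: uaacuuguuaggGuuuuuuuuuuuu

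Tet2-202 position 8470, chr3:133127352: augucugccuugCacacacacacac

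The A of Uhrf1 had 1007 and 1007 stops in NT, 380 and 380 in DMS and 347 and 347 in CMCT. The G of Tet2, whose next 25 bases occur 175 times, had 1568 and 1568 in NT, 539 and 538 in DMS and 505 and 504 in CMCT. The C of Tet2 had 710 and 708, 2522 and 2521, and 1749 and 1748. The replicates of each treatment were thus equal to within 2 stops in libraries whose totals differ. Of positions with at least 20 stops in a treatment, 5 of 5 positions of Uhrf1 found 10 times or more had NT replicates equal to within 1, against 3 of 15 positions found once, and in Tet2-202 the counts were 19 of 26 against 0 of 5. Equal replicates also occurred at positions found once, for example in Dnmt3l, with 4 of 10 positions in NT and 13 of 25 in CMCT. Stops at these positions cannot be assigned to these mRNAs alone. The SE and p-values given here treat the 2 replicates of a treatment as independent, which was not tested. Where replicates are not independent, such SE and p-values are too small.

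In Uhrf1-001, 9 positions found 10 times or more held 53.8% of all NT stops, 31.9% of the DMS stops and 17.1% of the CMCT stops. In Tet2-202, the listed isoform that holds the 3′ UTR (9179 nt), 64 such positions, 0.697% of the transcript, held 79.3%, 84.8% and 70.3%. With them, the 3′ UTR of Uhrf1 had 3.76 and 3.44 stops per base in NT and that of Tet2-202 had 3.41 and 3.34. At positions found once the same regions had 0.91 and 0.49, and 0.26 and 0.18. Tet1-001 was affected less, with 128 positions that held 17.8% of NT, 29.3% of DMS and 15.5% of CMCT stops.

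**Figure D4:**
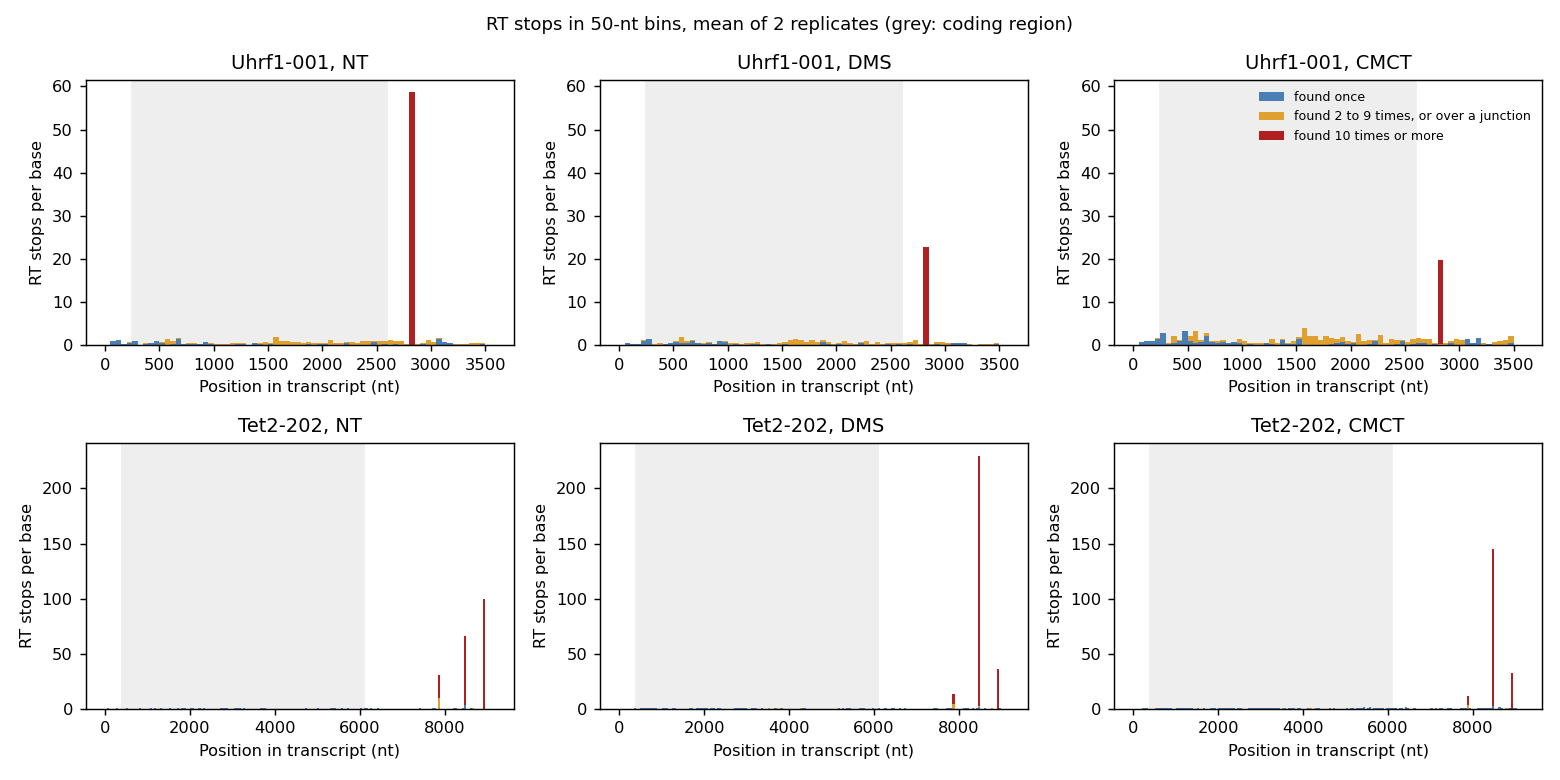
RT stops per base in bins of 50 nt along Uhrf1-001 (top) and Tet2-202 (bottom), mean of the 2 replicates of NT, DMS and CMCT, coloured by how often the following 25 bases occur in the genome; grey marks the coding region. In both, the highest bins are in the 3′ UTR and consist mainly of positions found 10 times or more.

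Copies of whole exons were a second source of shared sequence. Of Uhrf1-001, 43.3% of positions are found once and 45.0%, or 1615 positions, are found 2 to 9 times; 1445 of these have a copy within chrX:118447609-118450169, annotated as the pseudogene Gm5648, and 352 have one within chr16:38512696-38515379, where the pseudogene Gm15953 and the gene 4930455C21Rik are annotated. Of 710 positions of Dnmt3b found 2 to 9 times, 676 have a copy within chr2:153532273-153555667, at the pseudogene Gm14490. For Dnmt3a 60 of 76 such positions have a copy on chromosome 3, for Tet2 96 of 145 on chromosome 10 and for Tet1 46 of 138 on each of chromosomes 8 and 9, at places where no gene is annotated for Dnmt3a, Tet1 and Tet2. Stops of Uhrf1 and Dnmt3b in these exons cannot be told apart from stops on the copies.

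The isoforms of 1 gene mostly carry the same counts where they share exons, since 78.2% (Dnmt3b) to 91.6% (Tet1) of positions shared by listed isoforms have equal values in all isoforms, so that only segments private to an isoform bear on it. Dnmt3a encodes a long and a short protein, the short one starting within the gene. The long coding isoforms Dnmt3a-001 and Dnmt3a-006 are annotated but not among those listed here, and the listed Dnmt3a-005 encodes 689 residues. The annotated exons that lie before the first exon of Dnmt3a-005 held 123 stops at 559 found-once positions over the 6 libraries, 0.220 per base, and 14.2 RNA-seq alignments per kb (95% interval 7.78 to 23.9). The first exon of Dnmt3a-005 held 1.10 stops per base and 76.9 alignments per kb (35.2 to 146), and the exons both share held 2.09 and 212 (193 to 232). The 3′ UTR of Dnmt3a-001 beyond the end of Dnmt3a-005, 6601 bases long, held 70.3 alignments per kb (64.04 to 76.99). Stops were counted only in the parts of it that other listed transcripts hold, at 1.08 per base over 266 found-once positions. The longest of these parts, of 295 bases (chr12:3908253-3908547), had 241 alignments per kb. The first segment there private to Dnmt3a-001 and Dnmt3a-006 (chr12:3907888-3908252) had 301 alignments per kb, above the shared exons. The stops before Dnmt3a-005 were counted on other listed transcripts of the gene, so exons there that none of these hold have RNA-seq values only.

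Dnmt3l-001 starts with 2 exons whose private parts held 0 stops at 139 found-once positions in all 6 libraries. They held 0 RNA-seq alignments in 187 bases, which allows up to 19.7 alignments per kb. The 29 bases of the second exon shared with Dnmt3l-007 also held 0 stops and 0 alignments. The positions of the second of these exons that are not found once held 13 and 13 stops in NT, 7 and 6 in DMS and 16 and 12 in CMCT. These positions are not repeats but stand at the end of the exon, where the bases that follow cross the splice junction. How often the spliced sequence occurs was not searched, so whether these stops belong to this exon alone was not tested. The first 57 bases of Dnmt3l-002, private to it, held 50 and 48 stops in NT, 40 and 33 in DMS and 51 and 36 in CMCT. That is 4.53 per base over the 6 libraries, beside 351 alignments per kb (214 to 542). These 57 bases run on without a junction into bases shared with Dnmt3l-001 and Dnmt3l-003, so alignments can extend past them. The first exon of Dnmt3l-003 held 1.93 stops per base and 57.1 alignments per kb (15.6 to 146). It ends at a junction, so its alignments per kb are not like for like with those of the 57 bases. The segments private to the short isoforms Dnmt3l-004, Dnmt3l-005 and Dnmt3l-006 held 0.0817 per base, against 5.48 in exons that all 6 coding isoforms share. At all positions, that first exon of Dnmt3l-003, of 70 bases, held 93 and 100 stops in NT, 38 and 27 in DMS and 77 and 43 in CMCT. The 6 libraries together thus had fewer stops per base there than in the first 57 bases of Dnmt3l-002 only at positions found once.

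In Dnmt3b, the exon of 60 bases (chr2:153496585-153496644) that 4 listed coding isoforms skip held 26 and 20 stops in NT, 30 and 26 in DMS and 56 and 58 in CMCT. That is 6.17 per base against 4.00 in exons that all 10 coding isoforms share. RNA-seq did not have that order, with 133 alignments per kb in this exon (57.6 to 263) against 240 (224 to 257) in the shared exons, and these intervals overlap. The pair of exons skipped in the catalytically inactive kind of isoform, of 189 bases together, held 164 alignments per kb (111 to 233), but has only 1 position found once, so its stops are not read. In Uhrf1, the first exon of Uhrf1-001 and Uhrf1-002 held 3.69 stops per base and that of Uhrf1-003 and Uhrf1-004 held 2.72, against 6.40 in exons that the 4 long isoforms share. Unspliced 50-base alignments miss reads over junctions, which lowers the alignments of short exons.

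**Figure D5:**
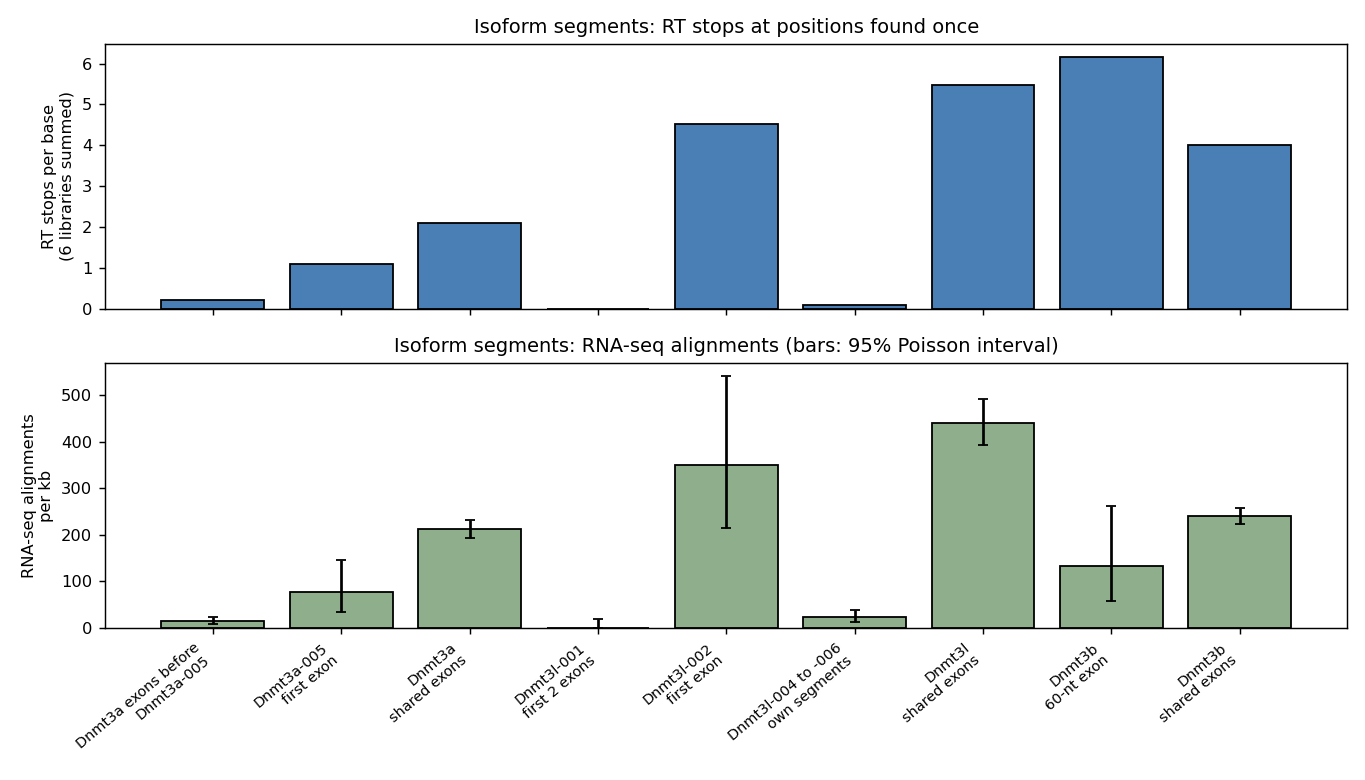
RT stops per base at positions found once, summed over 6 libraries (top), and RNA-seq alignments per kb with 95% Poisson intervals (bottom, 1 library), for exon segments that distinguish isoforms of Dnmt3a, Dnmt3l and Dnmt3b, beside shared exons. The first 2 exons of Dnmt3l-001 are at 0 in both panels. The private first 57 bases of Dnmt3l-002, labelled as its first exon, are at 4.53 stops per base and 351 alignments per kb.

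In Dnmt1, the replicates differed along the transcript. Over 5 neighbouring exons near the 3′ end (chr9:20712315-20714750, positions 3996 to 4908, in the catalytic part of the coding region), positions found once held 115 stops in NT replicate 1 and 2 in NT replicate 2. In DMS they held 58 and 15, and in CMCT 322 and 83. RNA-seq had 589 alignments per kb there and 883 in the rest of the mRNA. In the rest of Dnmt1 the replicates held 1496 and 980 stops in NT, 1116 and 966 in DMS and 3039 and 1852 in CMCT. The second replicate of each treatment was therefore lower in these 5 exons by a larger factor than elsewhere in Dnmt1. The stretch was noticed after its values were seen. Of 132 exon segments of the 7 genes with at least 10 found-once NT stops in replicate 1, these 5 were the ones with no more than 1 in replicate 2. These limits were chosen after the stretch was seen. With them, 2 of 144 segments were found in DMS and 0 of 162 in CMCT. Dnmt1 was not alone in a lower second replicate. The Tet1 exon at chr10:62285297-62285508 held 13 and 3 found-once stops in NT, 10 and 2 in DMS and 45 and 6 in CMCT. Outside the 5 exons of Dnmt1, stops at A or C were 53.1% and 49.6% in NT and 70.3% and 71.4% in DMS.

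The total stops of each gene were compared next, to ask whether treatment raised or lowered how many stops an mRNA received relative to the library. Uhrf1 had 6506 and 5068 stops at all positions in NT, 4105 and 3469 in DMS and 7325 and 5431 in CMCT. At all positions edgeR called 2 of the 7 genes in DMS against NT, both lower, where 26.4% of all genes were called and 12.5% were called lower. Uhrf1 fell by a log2 value of 1.06 ± 0.29 (SE, n = 2 against 2, adjusted p = 0.017) and Dnmt3l fell by 0.85 ± 0.26 (adjusted p = 0.0266). Neither call was made at positions found once, where Uhrf1 had -0.46 ± 0.19 (edgeR adjusted p = 0.168) and Dnmt3l had -0.79 ± 0.26 (0.111), and where edgeR called 0 of the 7 (3 had an unadjusted p under 0.05) and 2.79% of all genes lower. DESeq2 called 3 of the 7 lower there, Dnmt1, Dnmt3l and Tet1, against 5.86% of all genes.

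The other members did not pass in DMS against NT. The values at all positions were -0.68 for Dnmt1, -0.83 for Dnmt3a, -0.46 for Dnmt3b, -0.37 for Tet1 and 0.01 for Tet2, with edgeR adjusted p from 0.0549 for Dnmt3a to 0.982 for Tet2. The median of the 7 was -0.68 against 0.01 for all genes. Uhrf1 also lost its call without NT replicate 2 (edgeR adjusted p = 0.0692) or DMS replicate 1 (0.0752), and Dnmt3l without any 1 of the NT and DMS libraries (0.0529 to 0.151). The repeat positions above move with the value of Uhrf1, since they held 2925 and 2925 stops in NT and 1132 and 1133 in DMS. Equal replicates at these positions can also narrow the spread on which the SE of Uhrf1 rests. Dnmt3a had 5006 and 4650 NT stops at all positions and 707 and 453 at positions found once. Its value at all positions thus rests mostly on positions not found once.

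In CMCT against NT, edgeR called 0 of the 7 genes, against 29.0% of all genes. One of the 7, Dnmt1, had an unadjusted p under 0.05, with 0.53 on the log2 scale (edgeR adjusted p = 0.125), and DESeq2 called 3 of the 7, Dnmt1 and Tet1 higher and Uhrf1 lower, against 37.3% of all genes in either direction. Uhrf1, Dnmt3a and Tet2 changed sign between all positions and positions found once. They had -0.36, -0.13 and -0.30 at all positions and 0.25, 0.27 and 0.33 at positions found once, and edgeR and DESeq2 each called 0 of the 7 there, with 1 (Tet1) at an unadjusted p under 0.05, against 5.73% of all genes by edgeR. No direction is read for these 3 genes.

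DMS and CMCT libraries were also compared with each other. Dnmt1 had 1174 and 981 stops at positions found once in DMS and 3361 and 1935 in CMCT, and Tet1 had 2978 and 2715 in DMS and 8269 and 4896 in CMCT. The DMS counts are below the CMCT counts in both replicates of both genes. At all positions edgeR called 2 of the 7 genes, both lower in DMS, against 6.79% of all genes: Dnmt1 by -1.22 ± 0.25 (adjusted p = 0.0095) and Dnmt3l by -0.98 ± 0.26 (adjusted p = 0.0336). At positions found once it called Dnmt1 (-1.04 ± 0.18, adjusted p = 0.0263) and Tet1 (-0.95 ± 0.18, adjusted p = 0.036), against 3.52% of all genes called lower. The call of Dnmt1 was lost without either DMS replicate (edgeR adjusted p = 0.0628 and 0.0991 at all positions). At positions found once, leaving out any 1 of the 6 libraries gave 0 calls among the 7 by edgeR, with 2 to 6 of them at an unadjusted p under 0.05. The comparisons of DMS and of CMCT with NT share the NT libraries.

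Reactivity, the log2 ratio of treated to untreated stops scaled from 0 to 1 for each transcript, with the higher of the DMS and CMCT values taken at each base, differed between the bases. In Uhrf1 the mean DMS reactivity was 0.415 at A, 0.217 at C, 0.158 at G and 0.136 at U, and the mean CMCT reactivity was 0.373 at U, 0.254 at C, 0.247 at G and 0.229 at A. DMS reactivity was highest at A, and CMCT reactivity at U, in each of the 7 mRNAs. CMCT reactivity was higher at G than at C in Dnmt3l, at 0.213 and 0.208, and not in the other 6. Averaged over whole transcripts, reactivity was 0.400 in Uhrf1, 0.330 in Dnmt3l, 0.321 in Dnmt3b, 0.294 in Dnmt1, 0.284 in Tet2, 0.275 in Dnmt3a and 0.258 in Tet1. This order is nearly that of treated stops per base, and the part of depth in it was not tested. Each transcript was scaled to its mean over all positions, repeated ones included. In Uhrf1-001 the 9 positions found 10 times or more held 53.8% of NT, 31.9% of DMS and 17.1% of CMCT stops. Their part in the values of Uhrf1 was not tested either.

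The regions of the mRNAs differed in mean reactivity in ways that were not the same from gene to gene. The coding region had a higher mean than the 5′ UTR and the 3′ UTR in Uhrf1 (0.430, against 0.280 and 0.359), Dnmt3b (0.380, against 0.211 and 0.239), Dnmt3l (0.382, against 0.108 and 0.318) and Tet2-202 (0.304, against 0.235 and 0.290). The 5′ UTR value of Dnmt3l includes the 2 first exons, which hold no stops at positions found once. In Dnmt1 the 5′ UTR was highest, at 0.365 against 0.301 in the coding region and 0.160 in the 3′ UTR, a difference that kept its direction in either replicate alone. It came from CMCT, at 0.283 against 0.197 in the coding region, whereas DMS had 0.140 against 0.159. In Dnmt3a the 70 scored positions of the 3′ UTR had 0.340, against 0.281 in the coding region and 0.179 in the 5′ UTR, but the 3′ UTR was below the coding region at positions found once (0.227 against 0.284) and without replicate 1 (0.100 against 0.153), so it has no stable place. In Tet1 the 3 regions lay close together, at 0.273 in the 5′ UTR, 0.275 in the coding part and 0.244 in the 3′ UTR. No test was made of these means, which come from 1 set of positions per mRNA.

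Within codons, the first base was the most reactive in 5 of the 7 mRNAs with both replicates together, and in each replicate alone in 4 of these, the exception being Dnmt3a. In Uhrf1 the means at codon bases 1, 2 and 3 were 0.492, 0.413 and 0.386, in Dnmt3l 0.427, 0.370 and 0.347, in Dnmt3b 0.410, 0.360 and 0.369, in Dnmt1 0.334, 0.290 and 0.280 and in Dnmt3a 0.308, 0.242 and 0.293, where replicate 2 alone gave 0.154, 0.126 and 0.179. Tet1 (0.273, 0.278 and 0.275) and Tet2 (0.283, 0.289 and 0.280) showed no such order. The reactivity of windows of 10 nt in 1 replicate followed that in the other with a Pearson r of 0.802 in Dnmt3l, 0.799 in Dnmt3b, 0.740 in Tet2, 0.728 in Uhrf1, 0.686 in Tet1, 0.680 in Dnmt1 and 0.571 in Dnmt3a, across overlapping windows of 1 transcript that are not independent. In Dnmt3a and Tet1 too few positions had a positive DMS ratio in the second replicate to set the scale. The value of that replicate there comes from CMCT alone.

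Other genes of DNA methylation and demethylation were read from a list of 24, of which 14 are listed in the CIRS-seq counts. In DMS against NT at all positions edgeR called 0 of the 14 higher and 3 lower, where 12.5% of all genes were called lower. Mat2a, which makes the methyl donor S-adenosylmethionine, fell by 1.05 on the log2 scale (adjusted p = 0.0085) and also at positions found once, by 1.02 (adjusted p = 0.0426). Zfp57, which protects methylation at imprinted regions, fell by 1.03 (adjusted p = 0.0084) but had -0.53 (0.119) at positions found once. Zbtb38, a methyl-CpG binding zinc finger protein, fell by 4.16 (adjusted p = 0.0014) at all positions, with 55198 and 28310 stops in NT and 2561 and 3628 in DMS, but had 0.22 at positions found once, where it had 343 and 191 stops in NT and 447 and 357 in DMS. In CMCT against NT at all positions, 0 of the 14 were called higher and 1, Zbtb38, was called lower, as were 13.9% of all genes. Zbtb38 had -2.77 there (edgeR adjusted p = 0.0086) but 0.57 (edgeR adjusted p = 0.199) at positions found once. At positions found once, the odds of a stop at A or C in DMS against NT were called higher by limma in 13 of the 14, as in 69.2% of all genes. The exception was Pcna, the replication clamp, at 0.87 ± 0.42 (SE, limma adjusted p = 0.125). Pcna was called higher at all positions, at 1.27 (limma adjusted p = 0.0065). The odds of a stop at G or U in CMCT against NT were called at positions found once in 1, Tdg, the thymine DNA glycosylase that removes oxidised 5-methylcytosine. Tdg had -1.17 there (limma adjusted p = 0.0187, with 3.02% of all genes called lower), from only 27 and 22 NT stops. At all positions Tdg was called the other way, at 0.44 (limma adjusted p = 0.0454), so no direction is read for it. In RNA-seq, Trim28 (157 RPKM), Pcna (77.4), Mat2a (69.6), Zfp57 (51.3) and Apex1 (43.7) were more abundant than Uhrf1, while Tdg had 5.60 and Dppa3, a maternal factor that keeps Uhrf1 from chromatin, had 1.46.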

How the data were processed

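CIRS-seq libraries of 3 treatments (NT, DMS and CMCT, 2 biological replicates each) and 1 RNA-seq library were used, grouped by the submitters' titles. Per the labels and the study's methods, the authors sequenced RT stops and deposited raw counts of stops at each base of Ensembl transcripts; for RNA-seq they deposited 50-base alignment intervals on mm9, which hold no score that was used here. The submitters' processing notes name Bowtie 1.0.0, TopHat2 2.0.6 and bedtools 2.17.0. How CIRS-seq reads with several matches were placed is not given in the sources used here.

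Transcripts were matched to GENCODE vM1 by identifier, and each genomic position was counted once per gene. A position was found once when the 25 bases after it, within 1 exon, occurred once in mm9 on either strand. Gene counts were compared with edgeR 4.0.16 (quasi-likelihood, all 6 libraries in 1 fit, no replicate block), and log2 odds (pseudocount 1, at least 20 stops in each library, positions found once) with limma 3.58.1, under R 4.3.3. P-values were Benjamini-Hochberg adjusted over all genes tested, with a threshold of 0.05. DESeq2 1.42.0 and the other alternatives are given in the closing section. Both scripts were tested on simulated data. RNA-seq levels are alignments whose midpoint lies in exons of 1 gene, per kilobase of merged exons, scaled to the alignments in genes (RPKM), with 95% exact Poisson intervals that cover counting error only. Reactivity used all positions and a pseudocount of 1. Negative values and positions without a treated stop were set to 0, and values were scaled to the 90th percentile of each transcript.

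Only the 7 genes chosen by symbol and a list of 24 related genes were named, with the gene most like each by correlation; other genes are named where their values are given beside a result. The members and lists were chosen with earlier results of these data known. Isoform segments, the Dnmt1 exon stretch, pyrimidine-A pairs, Tet2-202 and the alternatives that combine positions found once with another choice were chosen after values were seen. Protein sequences were not used.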

Additional observations from a re-analysis of the deposited data

How the results depend on the processing

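Gene counts depended on which positions were counted. Genes called in DMS against NT numbered 3485 in the fit reported, 1082 at positions found once, 5595 with DESeq2, and 1896 with DESeq2 at positions found once; in CMCT against NT 3827, 4931 with DESeq2, with 658 at positions found once and 1837 with DESeq2 there; in DMS against CMCT, 1223, with 646 at positions found once, 2674 with DESeq2 and 712 with each transcript tested on its own. Leaving out 1 library gave 0 to 4619, 0 to 4402 and 428 to 1720 genes. The count of 0 by edgeR came at positions found once without NT replicate 1 (2764 genes at an unadjusted p under 0.05) or replicate 2 (2187) in DMS against NT, and without NT replicate 2 (1671) in CMCT against NT. Of the 7 genes, 2 were called in DMS against NT, 0 at positions found once and 4 with DESeq2. Of all 13216 genes tested, 26.4% were called in the fit reported. In CMCT against NT 0 of the 7 were called (29.0% of all genes), and 3 with DESeq2 (37.3% of all genes). In DMS against CMCT 2 of the 7 were called, and 5 with DESeq2, which called 2674 of all genes. For G and U odds, where limma called 1483 genes, 2344 were called for U alone and 289 to 1417 without 1 library; of the 7 genes 1 was called at all positions and 3 for U alone.

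The labels link same-numbered replicates by their number alone. At all positions their deviations correlated at r = 0.588 for NT with DMS, -0.066 for NT with CMCT and -0.045 for DMS with CMCT. At positions found once these values were 0.366, -0.138 and 0.124. NT and DMS libraries of the same number thus varied together, and what they share is not stated. With the replicate block, edgeR called 5616, 5030 and 2420 genes, or 1833, 1108 and 1068 at positions found once, and limma called 928 genes by G and U odds. Of the 7 genes, 4 were called in DMS against NT (0 at positions found once) and 4 in DMS against CMCT. Since 13216 genes were tested in the fit reported, calls with the block were common among all genes. Those of the 7 are not read as particular to them.

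The sign changed for a few members in comparisons in which edgeR did not call them. At positions found once, by edgeR, with the block, and with DESeq2, Tet2 had -0.13, -0.13 and -0.17 in DMS against NT, and 0.33, 0.33 and 0.29 in CMCT against NT, and -0.46, -0.46 and -0.46 in DMS against CMCT. In CMCT against NT, Uhrf1 had 0.25, 0.25 and 0.20 and Dnmt3a had 0.27, 0.27 and 0.23. Without 1 library, the values in CMCT against NT ran from -0.54 to 0.35 in Uhrf1, -0.33 to 0.44 in Dnmt3a, -0.21 to 0.34 in Dnmt3l and -0.57 to 0.42 in Tet2, whose values ran from -0.15 to 0.17 in DMS against NT and from -0.49 to 0.58 in DMS against CMCT. For G and U odds at all positions Uhrf1 had -0.028 and Tet2, which was then called, -0.98. The median RNA-seq level of the 7 was 21.2 RPKM, 22.3 from exon positions found once and 22.1 by possible 50-base starts. Single genes could move more than this median, which is the value of Tet1. By possible starts Dnmt3a moved from 2.63 to 10.4, Dnmt3l from 10.1 to 19.2 and Uhrf1 from 41.6 to 58.8. The median reactivity was 0.294, 0.339 with positions without a treated stop kept, and 0.239 to 0.285 without 1 replicate. Without replicate 1, Dnmt3a moved from 0.275 to 0.150 and Tet1 from 0.258 to 0.149. With 2 replicates, 1 RNA-seq library and under 1 stop per base in most members, single positions and small differences between regions are not resolved. The causes were not tested.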

Other observations

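Introns kept in listed transcripts of these genes held few stops at positions found once. The retained intron of Dnmt3a-003, counted with 29 private bases of its first exon, held 287 stops over the 6 libraries, 0.257 per base. The kept introns of Dnmt3b-010 held 0.117, that of Dnmt3l-008 held 0.336 and those of Uhrf1-007 held 0.366. Counted at all positions, Dnmt3a-003 had 6.61 treated stops per base and only 2.03% of its stops at positions found once, so most of the counts of Dnmt3a as a gene at all positions, 5006 and 4650 in NT, were at repeated positions. At positions found once Dnmt3a had 707 and 453.

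Across the 6 libraries, on the log2 scale of CPM at positions found once, the gene whose pattern was most like that of a member, among 8153 genes, was Srrm2 for Dnmt1 (Pearson r = 0.996), Nup50 for Dnmt3a (0.998), Ddx55 for Dnmt3b (0.996), Pnp for Dnmt3l (0.995), Mat2b for Tet2 (0.995), 6030458C11Rik for Tet1 (0.997) and 2310008H09Rik for Uhrf1 (0.990). With 6 points in 3 treatments such values are common, and each member had 77 to 140 genes above 0.95. Among the members, Dnmt3a and Dnmt3b were the most alike (0.977), followed by Dnmt1 and Tet1 (0.972).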
